A study of Mus musculus with 8 samples.

Results

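The genes described here code for the voltage-gated calcium channels, the voltage-gated sodium channels and the Stac adaptor proteins. They were chosen by symbol, as the pore-forming (Cacna1) and alpha2delta (Cacna2d) calcium channel subunits, the beta subunits Cacnb1 to Cacnb4, the gamma subunits Cacng1 to Cacng8, the sodium channel pore and beta subunits (Scn) and Stac, Stac2 and Stac3. Of the 22000 rows counted, 43 carried such a symbol, and the 35 that held 10 or more reads in 4 or more of the 8 libraries are the members. Values are given for 33 of them. RNA was sequenced from whole cortex, in mice whose labels read heterozygous for Mef2c, which codes for a transcription factor of neurons and microglia, and of mice labelled wild type. There were 4 mice of each genotype, of which 2 were male, each with its own library, and no treatment is named. The sources used here give no age, strain or allele. The title of the series asks about reduced MEF2C function in neurons and immune cells of the brain and the behaviour seen in the human syndrome.

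Voltage-gated calcium channels open when a neuron depolarises, and the calcium that enters triggers transmitter release, shapes firing and signals to the nucleus. The pore subunit sets the current type, while alpha2delta and beta subunits bring the channel to the membrane and tune its gating. Sodium channels carry the rising phase of the action potential, and their beta subunits adjust gating and anchor the channels. Stac proteins are adaptors that bind L-type calcium channels and slow their inactivation by calcium, and Stac3 is known for its part in the contraction of skeletal muscle.

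Total counts lay between 16092773 and 17841377 per library, and the members took between 0.513% and 0.539% of a library's reads. Markers of cortical excitatory neurons and of neurons in general were abundant in every library, with sums of 2532 to 2836 CPM (read counts scaled to a common library total) and 5808 to 6421 CPM. The Mef2c gene itself stood above wild type in all libraries labelled heterozygous, at 1304 ± 73.2 against 995 ± 41.3 CPM (SD, n = 4 each) and an adjusted p of 0.000154. Here and below p-values come from the quasi-likelihood F-test of edgeR, adjusted after Benjamini and Hochberg over all genes tested, and a gene passed, or was called, where the adjusted p was under 0.05. This goes against what the label would give for a lost transcript, and directions are therefore given by label only. Heterozygous replicate 4, labelled female, held 72 reads of 4 Y-linked genes, against 0 to 3 in the other females and 2150 to 2564 in the males. The animal numbers in the titles fall into 2 runs, each with 1 mouse of either sex and genotype. The labels do not say what the numbers stand for, and they are called the first and second animal run here.

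Stac2 was the 1 member that passed the test between the genotypes, and it was higher in the libraries labelled heterozygous by 1.32-fold (95% interval 1.22 to 1.43). No pore or auxiliary subunit of a calcium or sodium channel passed. All 35 members were among the 13879 genes tested, and 1 of 35 was called, against 0.267% of all genes (37). That 1 was higher, against 0.13% of all genes, and 0 were lower, against 0.137%. At an adjusted p under 0.1 it was still 1 member, against 0.519% of all genes. At 10 CPM or more, 25 of 29 members (86.2%) had a 95% interval of the fold change that lay wholly within 1.25-fold in either direction, and 81.9% of all genes at that level did. The median log2 fold change was 0.02 over the members and -0.001 over all genes, with 20 members above 0 and 15 below. Members with an unadjusted p under 0.05 numbered 4, Stac2, Cacna1g, Scn7a and Cacna1a, against 7.24% of all genes. Libraries of the 2 genotypes did not overlap for 1 member, Stac2, against 4.55% of all genes (2.16% higher and 2.38% lower). In a bulk sample, fewer cells of a type and less RNA per cell cannot be told apart.

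**Figure D1:**
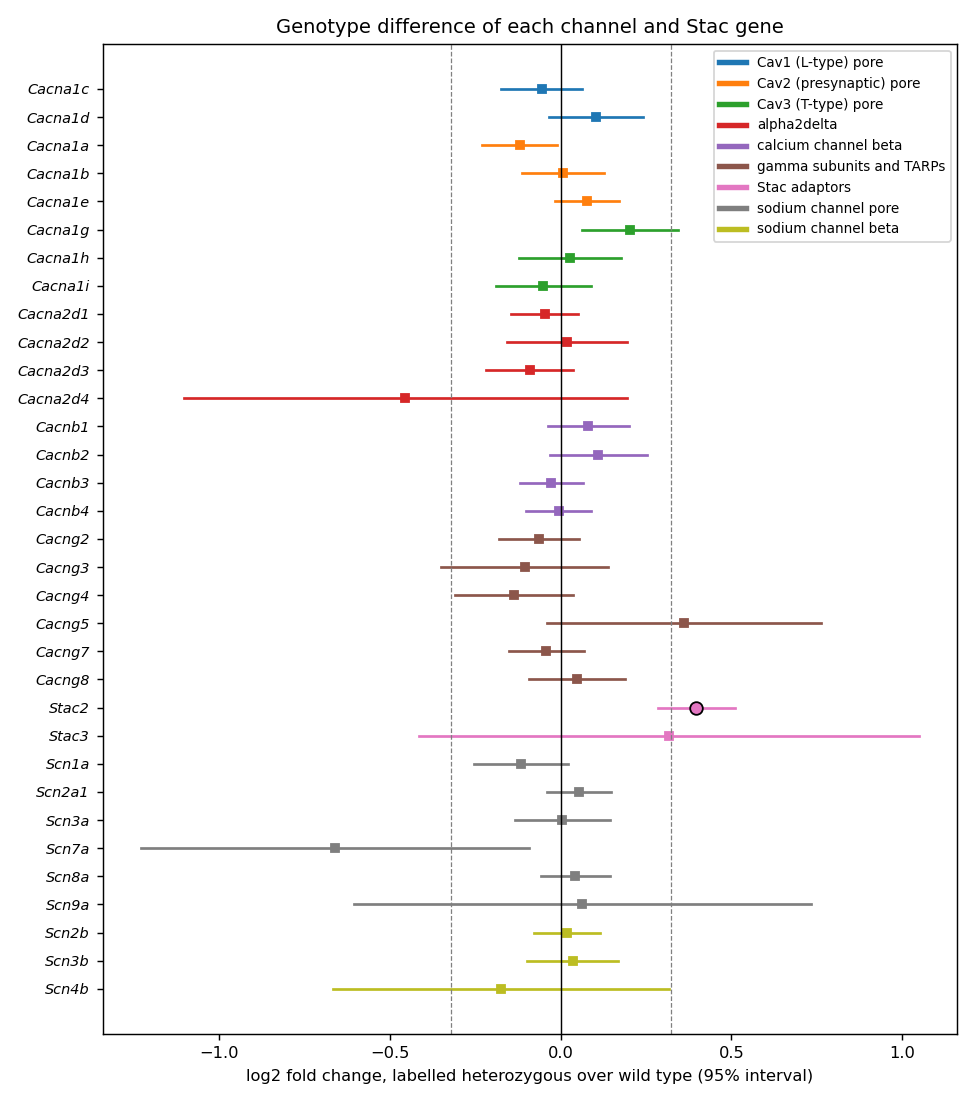
Log2 fold change (horizontal axis, labelled heterozygous over wild type, n = 4 each) of 33 members, grouped by role and coloured by it. Lines are 95% intervals, the circle with a black rim marks the called gene, squares mark genes that did not pass, and dashed lines mark 1.25-fold. Stac2 lies at 0.40 with its interval above 0, most other intervals are narrow and cover 0, and the wide ones belong to the members with few reads.

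Stac2 codes for a Stac protein of neurons. Its gene (ENSMUSG00000017400.10, protein coding) lies on the minus strand of chromosome 11 from 98036623 to 98053462 in GRCm38, and its exons overlap those of no other annotated gene. Stac2 stood at 184, 197, 161 and 184 CPM in heterozygous replicates 1 to 4 and at 146, 133, 134 and 138 CPM in wild type replicates 1 to 4. The lowest library labelled heterozygous, replicate 3, lay above the highest wild type library, replicate 1. Group means were 181.72 ± 14.996 and 137.84 ± 5.957 CPM (SD, n = 4). The log2 fold change was 0.40 ± 0.05 (SE), at an adjusted p of 0.000935 (edgeR), the 4th smallest p of all genes tested. The gene held between 2281 and 3399 reads per library, for which counting error alone comes to 1.91% of a library's value.

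The rise of Stac2 was present in both sexes and in both animal runs. Its log2 fold change was 0.42 in females and 0.37 in males of the fit with an interaction, and the difference between the sexes had an unadjusted p of 0.645 (edgeR). Fitted alone, the first animal run gave 0.46 and the second 0.34. With each library left out in turn it lay between 0.36 and 0.44 and stayed called each time. Without heterozygous replicate 4, the female with Y-linked reads, it was 0.41 with an adjusted p of 0.00247 (edgeR). With males alone, 2 against 2 libraries, the adjusted p was 0.322 (edgeR) and the call ended, with 0 members and 0.0502% of all genes called. Females alone called Stac2 (adjusted p 0.0474) and 0.0429% of all genes. The sum of 4 hippocampus markers did not overlap between the genotypes, at 208 to 252 CPM against 173 to 184 CPM. Of single genes tested, 4.55% did not overlap. Of the 4 markers, Wfs1, the gene of an endoplasmic reticulum protein, was called at a log2 fold change of 0.44. Wfs1 made up most of the sum, at 133 to 170 CPM against 105 to 119 CPM, without overlap. Prox1 and Zbtb20 had 0.18 and 0.15, overlapped between the genotypes and did not pass. Dsp lay at or under 0.174 CPM in every library. Their part in the Stac2 result was not tested.

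**Figure D2:**
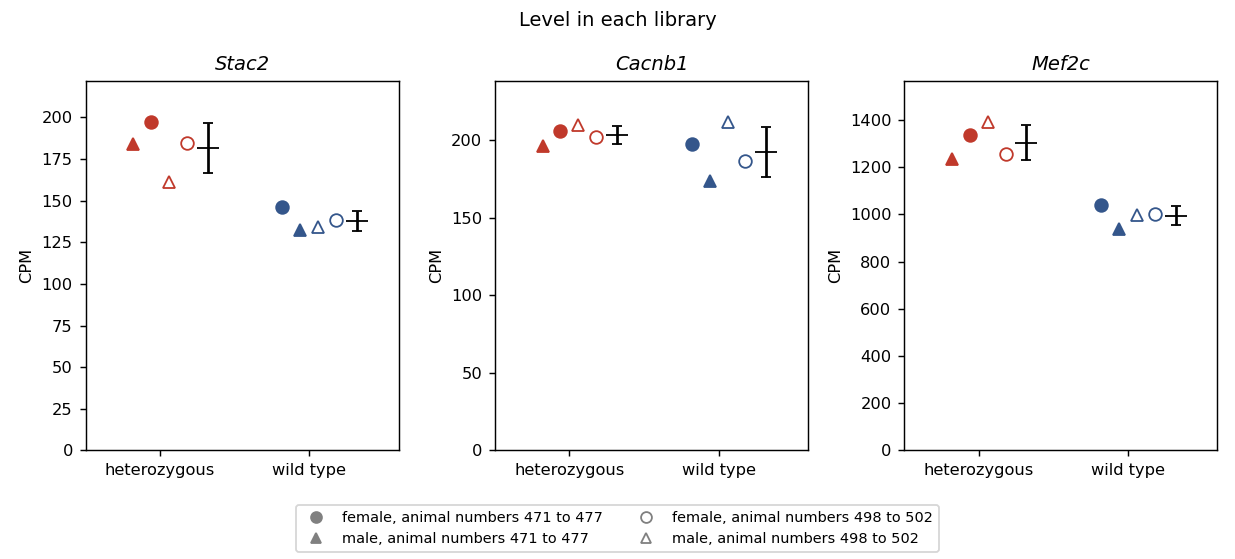
Level in CPM (vertical axis, from 0) in each library for Stac2, for Cacnb1, the nearest member on the chromosome, and for Mef2c. Circles are females and triangles males, filled for the first and open for the second animal run, and bars give mean ± SD (n = 4). The Stac2 and Mef2c libraries labelled heterozygous lie above every wild type library, and the Cacnb1 libraries overlap.

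The other Stac genes were near the limit of detection in this tissue. Stac3 had 1.30 ± 0.439 against 1.02 ± 0.172 CPM (SD, n = 4), from 13 to 30 reads per library. Its 95% interval of the fold change ran from 0.750 to 2.07, so a difference of the size of Stac2's was not detectable at this depth. Stac, the founding member of the family, had 61 reads in all 8 libraries together and missed the read minimum. The 7 markers of skeletal muscle, where Stac3 acts, summed to 29.8 to 40.0 CPM, most of it from Myh7 (16.6 to 29.9 CPM) and Acta1 (6.99 to 10.9 CPM). Ckm lay at or under 0.291 CPM and Mb at or under 0.249 CPM in every library. Of the list, 3 genes were tested and none was called. Tcap, a gene of the muscle sarcomere outside this list, was called lower, with a log2 fold change of -2.18, and is described further below.

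Among the L-type pores, the channels that Stac proteins bind, neither measured gene passed. Cacna1c, the main L-type pore of brain and heart, had 83.8, 86.5, 83.8 and 80.8 CPM in heterozygous replicates 1 to 4 and 87.3, 88.7, 83.8 and 88.1 CPM in wild type replicates 1 to 4. These values overlap, and the 95% interval of the fold change was 0.886 to 1.04. Cacna1d, an L-type pore that opens at lower voltage, had 52.4 ± 3.30 against 48.7 ± 0.825 CPM (SD, n = 4), with an interval of 0.978 to 1.18. Both intervals lie below the whole Stac2 interval. Cacna1s, the L-type pore of skeletal muscle, held 62 reads in all and Cacna1f, that of the retina, 24, and neither reached the minimum.

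The presynaptic pores carry the currents that release transmitter. Cacna1a, the pore of the P/Q-type current, had 229, 208, 201 and 195 CPM in heterozygous replicates 1 to 4 and 230, 225, 220 and 229 CPM in wild type replicates 1 to 4. Heterozygous replicate 1 lay inside the wild type range and the other 3 below it. The log2 fold change was -0.12 ± 0.05 (SE), at an unadjusted p of 0.0341 and an adjusted p of 0.606 (edgeR), so it did not pass. Without heterozygous replicate 1 it was -0.17 (adjusted p 0.174 (edgeR)). Cacna1e, the pore of the R-type current, had 293, 293, 289 and 278 CPM against 268, 267, 280 and 278 CPM, with overlap and a log2 fold change of 0.08 ± 0.05 (SE) that did not pass. Cacna1b, the pore of the N-type current, was at 109 ± 5.08 and 108 ± 5.05 CPM (SD, n = 4).

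Per kilobase of exons, Cacna1a made up 44.9% ± 1.55 of the summed level of the presynaptic pores in the libraries labelled heterozygous and 47.7% ± 1.11 in wild type (SD, n = 4). The share of Cacna1e was 28.2% ± 0.704 and 26.1% ± 0.472, without overlap of the libraries, though its level overlapped. Among the shares of all role groups, that of Scn7a in the sodium channel pores also did not overlap, at 0.341% ± 0.0854 and 0.537% ± 0.170. Shares were not computed over all genes, so no rate of non-overlap stands beside them. These shares add to a whole, so a lower share of 1 gene raises the others, and they were not tested.

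T-type channels open near the resting potential and support burst firing. Cacna1g had 97.8, 103, 86.2 and 98.0 CPM in heterozygous replicates 1 to 4 and 76.0, 82.9, 91.5 and 83.6 CPM in wild type replicates 1 to 4. The groups overlapped only where heterozygous replicate 3, the lowest of its group, lay below wild type replicate 3, the highest of its group. The log2 fold change was 0.20 ± 0.07 (SE), at an unadjusted p of 0.00652 and an adjusted p of 0.348 (edgeR). It did not pass, and the value differed between the animal runs, at 0.34 in the first and 0.07 in the second. It also differed between the sexes, at 0.33 in females and 0.08 in males of the fit with an interaction. That difference had an unadjusted p of 0.0694 (edgeR) and was not called. The first run alone, 2 against 2 libraries with sex as a term, called Cacna1g (adjusted p 0.00883 (edgeR)), together with 1.18% of all genes. The sum of 4 thalamus markers, a region known for Cacna1g, was 103 to 119.5 CPM against 107 to 119.3 CPM and overlapped. Rora made up most of it, at 80.3 to 100.4 CPM and a log2 fold change of -0.07, while Tcf7l2 (0.27), Prkcd (0.19) and Lef1 (0.10) lay above 0. None of the 4 passed, and their part in the Cacna1g values was not tested. Cacna1i had 160, 143, 145 and 131 CPM against 166, 137, 153 and 143 CPM, and the groups overlapped. Cacna1h, the remaining T-type pore, was at 44.8 ± 2.11 and 44.0 ± 3.81 CPM (SD, n = 4).

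Alpha2delta subunits carry calcium channels to the membrane, and some of them bind gabapentin. Cacna2d1 had 303, 303, 304 and 297 CPM in heterozygous replicates 1 to 4 and 308, 298, 305 and 336 CPM in wild type replicates 1 to 4, with wild type replicate 4 the highest. The 95% interval of its fold change was 0.905 to 1.04. Cacna2d2, known from cerebellar Purkinje cells, had an interval of 0.896 to 1.14 and Cacna2d3 one of 0.860 to 1.03. Cacna2d4, known from the retina, lay between 1.04 and 3.33 CPM and its interval of 0.466 to 1.14 is too wide to place it.

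The beta subunits bind the pore on its inner side. None of the 4 passed, and all had 95% intervals within 1.25-fold. Cacnb3, the highest of them per kilobase, had 306, 296, 294 and 286 CPM in heterozygous replicates 1 to 4 and 294, 305, 313 and 292 CPM in wild type replicates 1 to 4, and the groups overlapped. Cacnb4, whose loss causes the lethargic phenotype in mice, had an interval of 0.932 to 1.06. Cacnb2 had a log2 fold change of 0.11 ± 0.07 (SE) and did not pass. Cacnb1 is the member nearest to Stac2: its gene (98001508 to 98023034) lies 13588 bases away on the same strand. The ribosomal protein gene Rpl19 (98026710 to 98030492) lies between them, with a log2 fold change of 0.11 that did not pass. Cacnb1 had 196, 206, 210 and 202 CPM against 197, 174, 212 and 187 CPM, with a log2 fold change of 0.08 ± 0.06 (SE) that did not pass.

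Most members of the Cacng family act in the brain as TARPs, which traffic AMPA-type glutamate receptors and slow their closing. Of the 6 measured, none passed, with 2 above 0 and 4 below. Cacng7 had 176, 193, 194 and 186 CPM in heterozygous replicates 1 to 4 and 205, 191, 194 and 181 CPM in wild type replicates 1 to 4. Cacng2 (stargazin), the first TARP described, was at 141 ± 8.69 and 147 ± 7.45 CPM (SD, n = 4), and Cacng8, a TARP of hippocampus and cortex, at 46.1 ± 1.08 and 44.6 ± 1.95 CPM. Cacng3, a cortical TARP, varied most among the abundant ones, from 164 CPM in heterozygous replicate 1 to 238 CPM in wild type replicate 1, and its interval was 0.784 to 1.10. Cacng4 had a log2 fold change of -0.14 ± 0.08 (SE), and Cacng5, at 5.06 to 10.7 CPM, one of 0.36 ± 0.19 (SE). Cacng6 (48 reads) and Cacng1 (0 reads), which belong to calcium channels of muscle, missed the minimum.

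The AMPA receptor subunits and their auxiliary proteins outside the TARP family form a list of 12 genes, of which 1 was called, against 0.13% of all genes called higher. It was the subunit gene Gria1, with a log2 fold change of 0.22 and an adjusted p of 0.0454 (edgeR). That call remained without heterozygous replicate 1 and ended with any other library left out, the adjusted p ranging from 0.0282 to 0.222. The cornichon gene Cnih3 (0.25) and Shisa6 (0.37) missed the threshold, at adjusted p-values of 0.0711 and 0.160 (edgeR). The median of the list was 0.09 and 9 of its genes lay above 0, while the TARPs had a median of -0.05. The difference between the lists was not tested.

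The sodium channel pores of cortical neurons are Scn1a, known from inhibitory interneurons, and Scn2a1 (now Scn2a), Scn3a and Scn8a, known from excitatory neurons. None of the 7 measured pores passed. Scn2a1 had 442, 423, 429 and 424 CPM in heterozygous replicates 1 to 4 and 412, 393, 420 and 430 CPM in wild type replicates 1 to 4, and its 95% interval was 0.973 to 1.11. Scn8a, the pore of the mature axon initial segment and node, was at 458 ± 30.7 and 445 ± 15.5 CPM (SD, n = 4). Scn3a, the pore that prevails before birth, was at 45.9 ± 0.720 and 45.7 ± 1.98 CPM.

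Scn1a had 212, 185, 193 and 190 CPM in heterozygous replicates 1 to 4 and 239, 193, 194 and 221 CPM in wild type replicates 1 to 4. Its groups overlapped, with the wild type females above the other 6 libraries. The log2 fold change over all libraries was -0.12 ± 0.07 (SE) and did not pass. In the fit with an interaction it was -0.30 in females and 0.07 in males, and their difference had an unadjusted p of 0.00276 and an adjusted p of 1 (edgeR). Of the 35 members, 2, Scn1a among them, had an unadjusted p under 0.05 for this difference, against 2.64% of all genes. No member was called, and no gene of the table was (0%). DESeq2 and limma-voom, run as alternatives, called no member, with 1 and 2 at an unadjusted p under 0.05.

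The remaining sodium channel pores had few reads. Scn7a, a channel that senses sodium and does not open with voltage, had 1.42, 2.20, 2.30 and 2.46 CPM in heterozygous replicates 1 to 4 and 3.14, 2.42, 4.87 and 2.85 CPM in wild type replicates 1 to 4. Heterozygous replicate 4 lay above wild type replicate 2, so the groups overlapped by that pair. The log2 fold change was -0.66 ± 0.27 (SE), at an unadjusted p of 0.0243 and an adjusted p of 0.553 (edgeR), and it was -0.37 without wild type replicate 3. It rests on 24 to 85 reads per library. Scn9a, the pore of pain-sensing neurons, had between 0.974 and 2.73 CPM. Of the members with values given here, each reached 10 reads in all 8 libraries, and Stac3 had the lowest count, 13 reads. The rows just outside the minimum were Scn10a and Cacna1s, with 10 reads in 2 libraries each. Scn10a held 52 reads, Scn4a 4 and Scn11a 2 in all, the pores of sensory neurons and muscle.

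Sodium channel beta subunits are single-pass membrane proteins. Scn2b, which is linked to the pore by a disulfide bond, had 278, 262, 269 and 257 CPM in heterozygous replicates 1 to 4 and 268.5, 259.95, 270.28 and 253 CPM in wild type replicates 1 to 4. The groups overlapped, with an interval of 0.948 to 1.08. Scn3b had an interval of 0.933 to 1.12. Scn4b, whose product supports resurgent current in fast-firing cells and is also known from striatum, had 107, 67.6, 62.4 and 69.9 CPM in heterozygous replicates 1 to 4 and 83.9, 78.5, 84.9 and 97.8 CPM in wild type replicates 1 to 4. Heterozygous replicate 1 was the highest of all 8 libraries, and the other 3 labelled heterozygous were the lowest 3. With all libraries the log2 fold change was -0.17 ± 0.20 (SE) and did not pass, at an adjusted p of 0.965 (edgeR).

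Without heterozygous replicate 1, Scn4b had a log2 fold change of -0.40 ± 0.07 (SE) and was called, at an adjusted p of 0.00675 (edgeR), together with 0.573% of all genes. The second animal run alone, 2 against 2 libraries with sex as a term, does not hold that library. It gave -0.46 (adjusted p 0.00263 (edgeR), with 0.502% of all genes called), and the first run gave 0.07. Its libraries are all part of the fit without heterozygous replicate 1, so these fits are not independent. Markers of the striatum summed to 272, 270, 233 and 205 CPM in heterozygous replicates 1 to 4 and to 211 to 233 CPM in wild type. Heterozygous replicates 1 and 2 held the highest sums of these markers, and their Scn4b levels were 107 and 67.6 CPM. Oligodendrocyte markers were highest in heterozygous replicate 1, at 7116 CPM against 5625 to 6580 CPM in the other 7 libraries. Pvalb, the marker of fast-firing interneurons, had 58.4 CPM in that library and 48.5 to 66.1 CPM in the others. The part of these cells in the Scn4b values was not tested.

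**Figure D3:**
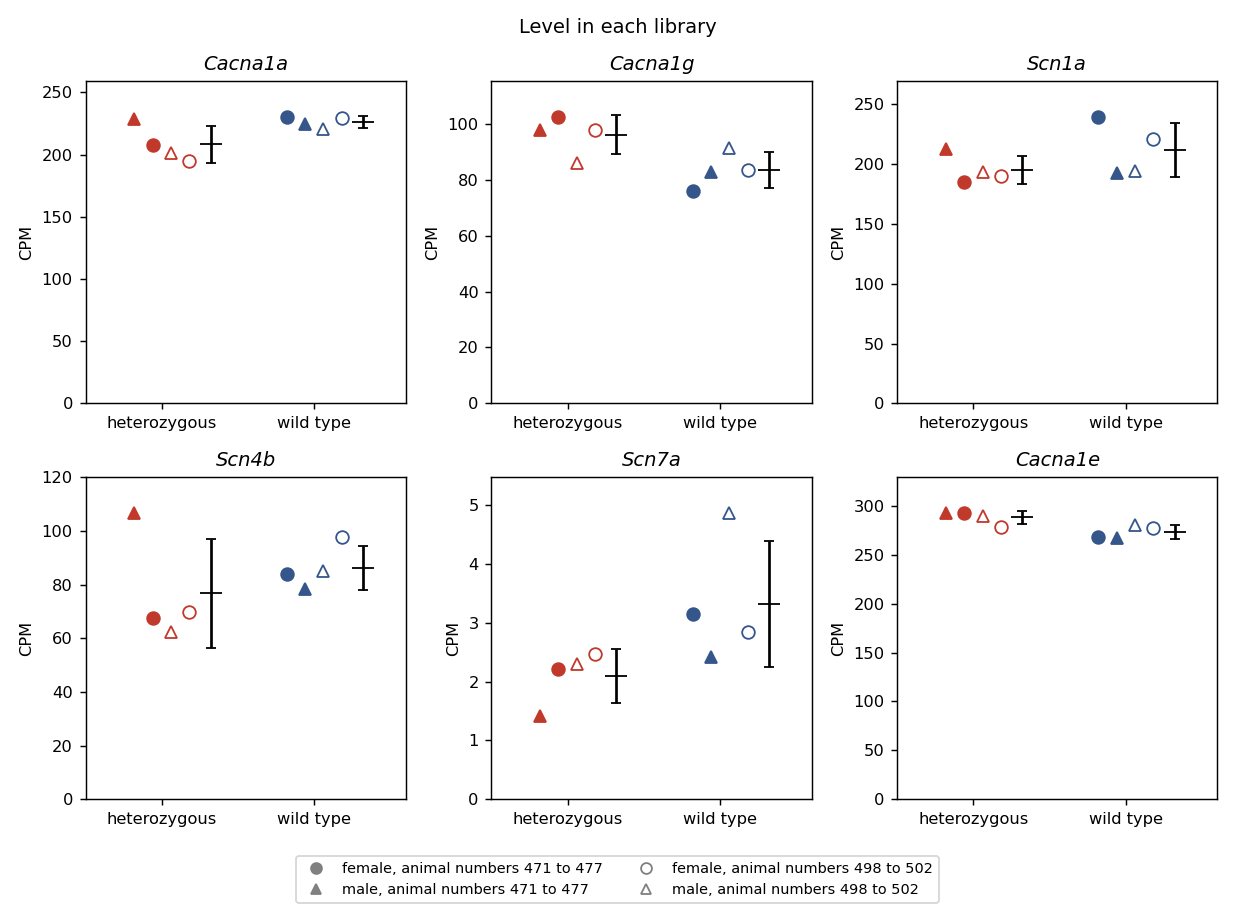
Level in CPM (vertical axis, from 0) in each library for 6 members that did not pass with all libraries. Circles are females and triangles males, filled for the first and open for the second animal run, and bars give mean ± SD (n = 4). In Scn4b heterozygous replicate 1 (filled red triangle, 107 CPM) stands apart from the other 3 of its group, and in Scn1a the wild type females lie above the other libraries.

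**Figure D4:**
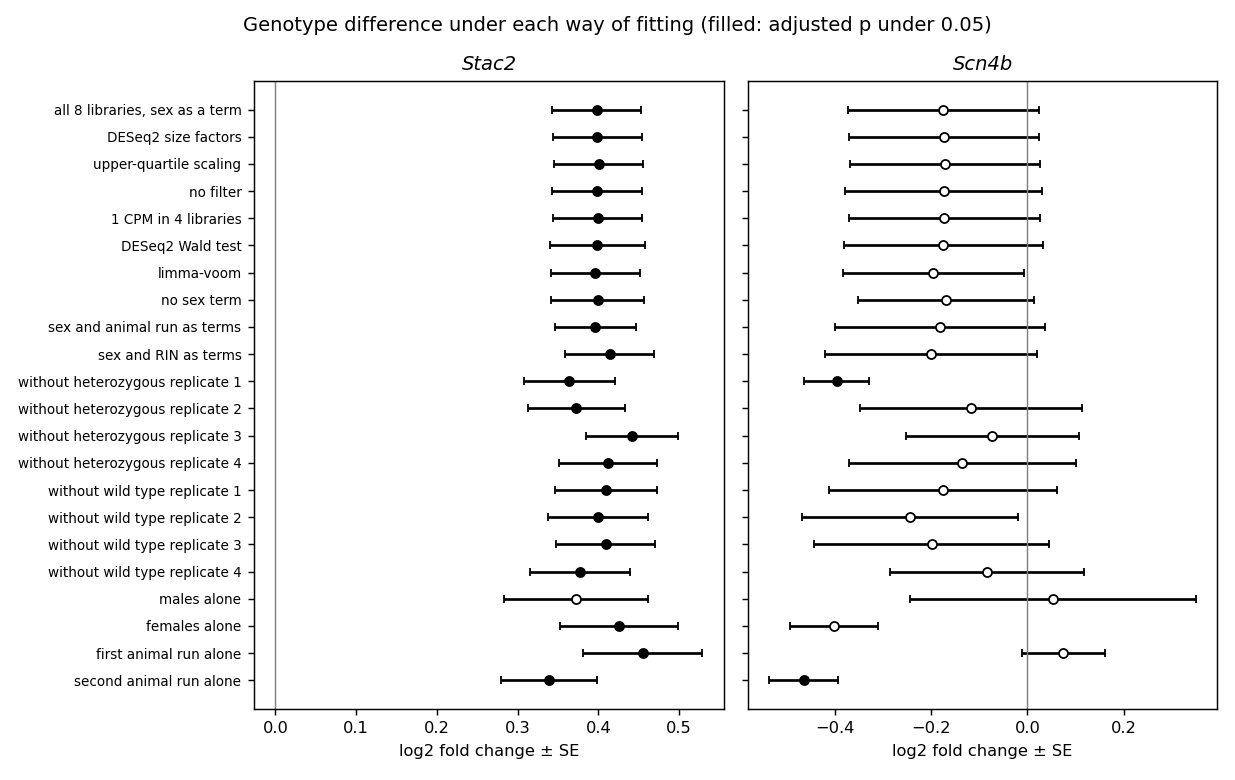
Log2 fold change ± SE (horizontal axis) of Stac2 and Scn4b with all 8 libraries and under each of 21 other ways of fitting (vertical axis), filled where the adjusted p was under 0.05. Stac2 lies between 0.34 and 0.46 throughout and is open with males alone, while Scn4b is filled without heterozygous replicate 1 and with the second animal run alone.

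Between the sexes edgeR called no member, against 0.0288% of all genes. The alternatives DESeq2 and limma-voom also called none. At an unadjusted p under 0.05 there was 1 member by each of the 3 tools, against 2.92% of all genes in edgeR, and in edgeR it was Stac2. Its male minus female log2 fold change was -0.12 ± 0.05 (SE), at means of 153 CPM in males and 166 CPM in females.

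Levels between genes were compared as CPM per kilobase of exons. Among the members with values given here, Cacng7 (77.8 ± 3.70, SD over 8 libraries), Cacng3 (74.6 ± 8.68) and Cacnb3 (74.4 ± 2.22) were highest and overlapped, followed by Scn2b (56.9 ± 1.75) and Stac2. Stac2 had 57.9 ± 4.78 in the libraries labelled heterozygous and 43.9 ± 1.90 in wild type (SD, n = 4). Among the pores Scn2a1 was highest at 33.1 ± 1.14 and Scn8a next at 28.6, ahead of Cacna1a at 19.0 ± 1.22 and Scn1a at 18.3 ± 1.70. The L-type pores Cacna1c (4.03 ± 0.129) and Cacna1d (4.01 ± 0.236) overlapped. Of 34 neighbouring pairs in the order, 27 overlapped over the libraries.

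Lengths matter for this order, since the annotation used for counting is not given. With the exons of the smaller basic transcript set, 12 of the 35 members held the same place and none moved by more than 7 places. With that set Stac2 had 59.6 in the libraries labelled heterozygous and 45.2 in wild type, and Scn2a1 had 47.3 and 45.6, so in wild type the pair differed by less than the spread between libraries. Cacnb2 had 4.14 with the full and 11.4 with the basic set, and Cacna2d3 10.8 and 24.0.

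**Figure D5:**
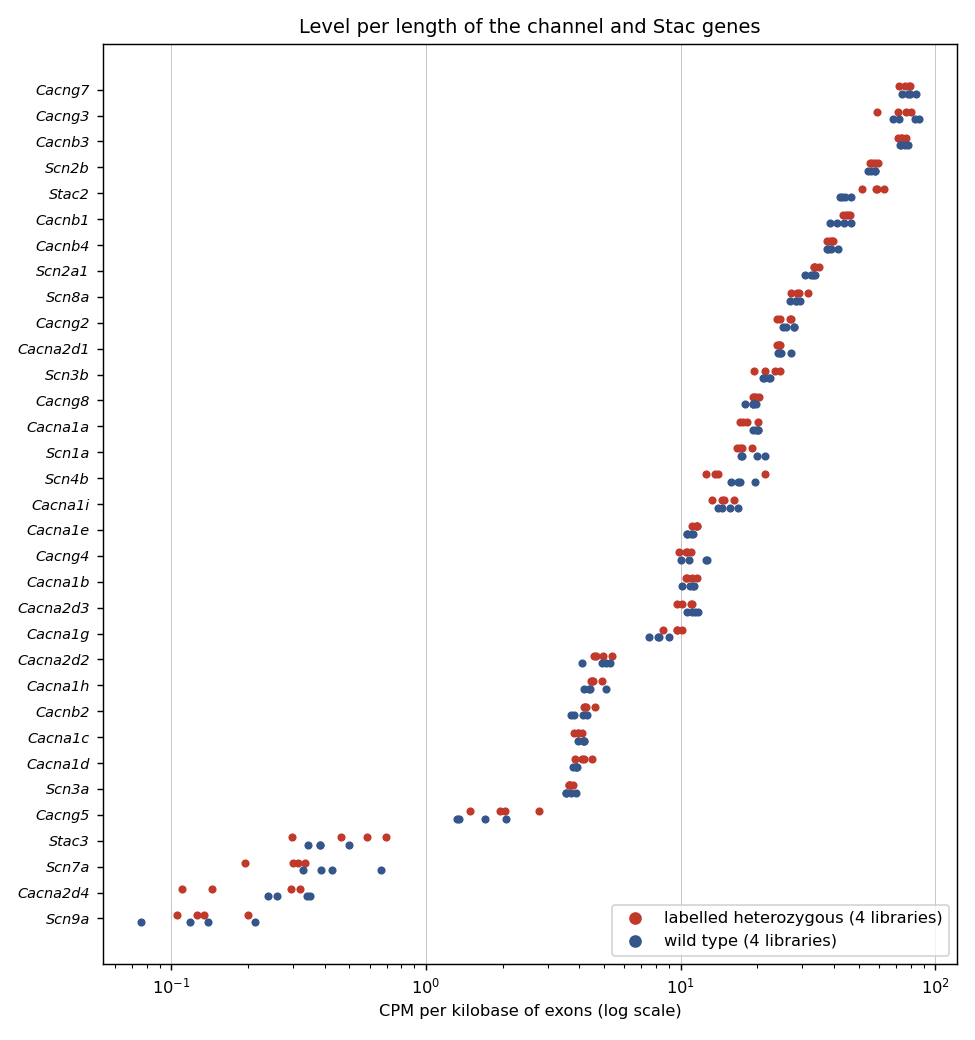
CPM per kilobase of exons (horizontal axis, log scale) of 33 members, ordered by their mean, with 1 point per library, red for the 4 labelled heterozygous and blue for the 4 wild type. Cacng7 lies near 77.8 and Scn9a near 0.139, and Stac2 is the member whose red and blue points are apart.

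Several members are neighbours on a chromosome. Scn3a, Scn2a1, Scn1a, Scn9a and Scn7a lie together on chromosome 2 from 65457118 to 66784914, with means of 3.68, 33.1, 18.3, 0.139 and 0.369 CPM per kilobase, so genes of 1 cluster differed widely in level. Cacng6, Cacng7 and Cacng8 lie on chromosome 7 between 3332955 and 3435667, and Scn2b and Scn4b on chromosome 9 between 45117782 and 45154152. The exons of 10 of the 35 members overlap another annotated gene. For Cacnb4 this came to 15.99% of the exon length, opposite to A430018G15Rik, and for the others to at most 5.86% with any 1 gene. As the strand setting is not given, reads of such pairs cannot be told apart.

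Partner proteins of the channels were described by lists and by counts called. Over all genes tested, 0.267% were called and 4.55% did not overlap between the genotypes. At such a rate of calls a short list would mostly hold no called gene. Of 12 genes of calmodulin, related calcium-binding proteins, CaM kinase and calcineurin, none was called, and the median log2 fold change was 0.03. Caln1, the gene of a neuronal calcium-binding protein, had the smallest p, at 273, 265, 240 and 246 CPM against 205, 227, 197 and 225 CPM. Its groups did not overlap, and its log2 fold change of 0.26 had an adjusted p of 0.0554 (edgeR). Of 11 presynaptic and anchoring scaffold genes none was called, 9 lay below 0 and the median was -0.05. Rimbp2, whose product ties calcium channels to the release site, had 214, 195, 202 and 188 CPM against 225, 230, 246 and 225 CPM, without overlap. Its log2 fold change was -0.21 and its adjusted p 0.0672 (edgeR), so it did not pass.

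The RGK proteins inhibit calcium channels through the beta subunit. Of their 3 tested genes none was called, and each lay at or under 5.21 CPM. The smallest p was that of Rem2, with a log2 fold change of 0.34. Of 6 tested ryanodine receptor and junctophilin genes none was called (median 0.03), with the smallest p for Ryr1 (0.23). Sodium channel partners of the axon initial segment and node, ankyrin and Fgf14 among them, had none of 12 called and a median of 0.01, all within 0.10 of 0. Among them Nfasc, the gene of neurofascin, had the smallest p and a log2 fold change of 0.07. The sodium leak channel Nalcn and its partners had none of 4 called and a median of -0.03, with the smallest p for Unc79 (-0.07).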

How the data were processed

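RNA was extracted with a column kit, selected for polyadenylated RNA and sequenced, per the labels' protocols. The table deposited by the authors holds unnormalised read counts by symbol. Per the submitters' processing notes, STAR 2.5.2b, HTSeq and mm10 were used, while annotation, strand setting and filters have no source here. Everything else was computed from these counts. Genes were kept with filterByExpr (minimum count 10), leaving 13879 genes with 99.95% of reads, and TMM set the scaling. edgeR 4.0.16 in R 4.3.3 fitted a quasi-likelihood model with sex and genotype, and an adjusted p (Benjamini-Hochberg over all genes tested) under 0.05 was called. A further fit had their interaction. Intervals cover 95% and use the standard error implied by the F statistic. DESeq2 1.42.0 and limma 3.58.1 served as alternatives. The steps were also run on simulated counts, but recovery of differences as small as those described here is not reported. Positions and exon lengths are from GENCODE M21 (GRCm38), in which all 44 symbols looked up were found, Scn2a1 under its current name Scn2a.

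The members and lists were chosen with earlier results of these data known. Every library's value is given for members called or at an unadjusted p under 0.05 and for the highest member per length of each role among those reported, and Scn1a, Scn4b, Cacna1e and Cacnb1 were added after their values were seen. In each partner list, called genes or the one with the smallest p are named, and Cnih3 and Shisa6 were added after their values were seen. The libraries are separate mice by their titles. Values of 2 members are not reported here, though counts over all members include them.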

Additional observations from a re-analysis of the deposited data

Results flagged for a closer look

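Of 72 groups of 4 libraries (35 members and Mef2c in each genotype), 1 held a library far from its group by Dixon's gap ratio above its 95% critical value, where chance flags about 1 group in 20. It was Scn4b in heterozygous replicate 1, at 106.8 CPM against 62.4 to 69.9 CPM in the other 3 libraries of that group, a gap ratio of 0.832.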

How the results depend on the processing

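Stac2 was called under 20 of 21 alternatives, the exception being males alone. The count of called members was 0 with males alone, 2 with the first and 2 with the second animal run alone, and 1 to 2 with a library left out. The count over all genes was 37. It was 82 without a filter, 80 with the DESeq2 Wald test, 72 with the animal run as a term, 72 at an adjusted p under 0.1, 7 with males alone, 6 with females alone, 164 with the first and 70 with the second animal run alone, and 19 to 80 with a library left out (19 and 23 on omitting wild type replicates 2 and 1, 24 and 80 on omitting heterozygous replicates 2 and 1). Beyond fewer libraries in some fits, the cause was not tested. The log2 fold change of 15 of the 35 members kept its sign under all 21 alternatives. No paired analysis was possible because the groups share no replicate number in the labels, and the fit with the animal run as a term is the nearest to a block. Depth limits the 6 members under 10 CPM, whose intervals are wide.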

Other observations

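The surroundings of Stac2 on chromosome 11 were looked at after its value was seen. Within 500000 bases on either side, 26 other genes were tested, 17 with a log2 fold change above 0 and 9 below, with a median of 0.06. Over all genes 49.5% lay above 0 and the median was -0.001. A difference between this window and all genes was not tested. Tcap (98383811 to 98384953), which codes for telethonin of the muscle sarcomere, was the 1 other called gene there, against 0.267% of all genes. It lies 330349 bases from Stac2 and moved the other way, at 1.77 ± 0.585 against 8.01 ± 2.63 CPM (SD, n = 4). Its log2 fold change was -2.18 ± 0.27 (SE). Between the genes lie Fbxl20 (0.10), Med1 (-0.04), Cdk12 (0.07), Neurod2 (0.09), Ppp1r1b (0.22) and Stard3 (-0.02), none of which passed.

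Promoters were searched in RefSeq windows (GRCm38.p6) of the 250 bases before each annotated start, on both strands. The table held 35 windows of 24 members and no entry for 11, among them Cacna1a, Cacna1g, Cacna1h, Cacna2d4, Cacng4, Scn3a, Scn3b, Stac2 and Stac3. The MEF2 consensus was found in 0 of the 35 windows and in 2.92% of all 32851, and the CRE motif TGACGTCA in 0 of 35 and in 1.55%. The motifs do not overlap each other. These counts say only that the letters are not in these windows.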
